A study of Mus musculus with 6 samples.

Results

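Thymocytes are the developing T cells that fill the thymus, and 10 genes that mark them were followed as a gauge of thymocyte RNA in 6 RNA-seq libraries of sorted thymic tuft cells. These were Cd3d, Cd3e, Cd3g, Cd4, Cd8a, Lck, Ptcra, Rag1, Rag2 and Dntt, out of the 55471 genes in the expression table. They were listed by symbol, and all 10 were found by their Ensembl identifiers. Thymic tuft cells are chemosensory epithelial cells of the thymic medulla, and they were sorted on L1CAM, a surface adhesion molecule. All the mice carried floxed alleles of Ikzf1, which encodes the zinc finger transcription factor Ikaros. A group of 3 samples was Foxn1-Cre-negative (genotype given as WT) and the other group of 3 was Foxn1-Cre-positive (given as KO). Foxn1-Cre is a recombinase driven in thymic epithelium rather than in thymocytes. The labels used here state no age or sex for the mice. They also do not say whether libraries came from different animals, so each p-value measures only how these samples spread, which may be technical.

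Thymocytes assemble their antigen receptor in steps. The recombinase proteins made from Rag1 and Rag2 cut the receptor genes and terminal transferase, made from Dntt, adds bases at the joints. The first receptor chain pairs with the pre-T alpha chain made from Ptcra and signals through the CD3 chains and the kinase LCK. Cells that pass this step express the coreceptors CD4 and CD8 together before they keep a single one. Thymocytes lie packed against epithelial cells, so their RNA can be carried into preparations of sorted thymic stroma.

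Expression columns carry the names Het1, Het2, Het3, Ko1, Ko2 and Ko3. Ko was read as the Cre-positive group and Het, a word no label uses, as the Cre-negative group by elimination. Library totals ran from 12238428 to 31435787 reads, with Het1 the deepest and Ko3 the least deep. Values are normalized counts, in which 1 read is worth between 0.559 (Het1) and 1.44 (Het3). Ikzf1 itself averaged 1584 ± 128 normalized counts in the libraries labelled Ko, higher than the 254 ± 59.7 of the Het libraries (limma adjusted p = 0.0105; SD, n = 3 each), so directions below are between libraries as labelled. The tuft cell ion channel gene Trpm5 averaged 15047 ± 3150 normalized counts across Het and 18667 ± 1352 across Ko libraries (SD, n = 3 each), and all 30 genes of a tuft cell list passed the filter on low values.

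The genes of the 3 CD3 chains are shown by sequence first, because they are neighbours in the genome and yet were read very differently from library to library. In RefSeq on build GRCm38.p6, which is not the build of the deposited counts, the starts of Cd3d and Cd3g lie 1355 bases apart on chromosome 9 and point away from each other, and the start of Cd3e lies 27825 bases from that of Cd3d. The windows below run 5′ to 3′ on the gene's own strand, from 250 bases before the start to 50 bases after it. Capitals mark matches to the letters TGGGAA on either strand, a core of the sites that Ikaros is known to bind.
Cd3d, chr9:44981536-44981835, plus strand: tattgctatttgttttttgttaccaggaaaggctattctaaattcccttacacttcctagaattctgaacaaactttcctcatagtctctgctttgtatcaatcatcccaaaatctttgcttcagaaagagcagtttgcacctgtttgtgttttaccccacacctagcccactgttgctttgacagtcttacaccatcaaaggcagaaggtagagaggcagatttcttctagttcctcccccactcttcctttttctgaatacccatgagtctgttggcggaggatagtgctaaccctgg
Cd3g, chr9:44980382-44980681, minus strand: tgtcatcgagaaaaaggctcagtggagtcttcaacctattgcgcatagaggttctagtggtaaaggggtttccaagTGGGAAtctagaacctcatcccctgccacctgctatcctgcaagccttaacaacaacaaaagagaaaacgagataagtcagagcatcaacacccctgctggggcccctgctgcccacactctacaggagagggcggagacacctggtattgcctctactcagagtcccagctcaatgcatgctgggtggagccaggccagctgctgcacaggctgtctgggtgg
Cd3e, chr9:45009562-45009861, minus strand: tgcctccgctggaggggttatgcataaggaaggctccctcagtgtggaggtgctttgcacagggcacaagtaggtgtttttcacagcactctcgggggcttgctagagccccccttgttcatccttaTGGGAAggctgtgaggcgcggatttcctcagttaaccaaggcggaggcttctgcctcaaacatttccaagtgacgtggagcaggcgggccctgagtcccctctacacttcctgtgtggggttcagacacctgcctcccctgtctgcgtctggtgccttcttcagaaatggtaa
The Cd3g and Cd3e windows each hold 1 match and the Cd3d window holds none. Of the 10 genes, 9 had promoter windows in the RefSeq table, 10 windows in all since Lck has 2, and 6 of the 10 windows hold TGGGAA, against 25.6% of 32851 windows of the same length. The E-box CAGCTG was found in 4 of the 10 windows (Cd3g, Cd8a, Ptcra and Rag1; 16.3% of all windows), the Runx core TGTGGT in 2 (Lck and Rag1; 16.8%) and TATAAA in 0 (13.6%). Both strands were searched, and no match of these 4 motifs was tested for binding.

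Cd3d (ENSMUSG00000032094), which encodes the CD3 delta chain, was the steadiest of the 10 genes that were read at more than a few reads. Its normalized counts were 39.1 in Het1, 41.2 in Het2 and 116.9 in Het3, with 64.8 in Ko1, 94.3 in Ko2 and 68.8 in Ko3, resting on 48 to 91 reads in each library. Every library held it, the highest 2.99 times the lowest, and the Het values enclosed all the Ko values.

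Cd3g (ENSMUSG00000002033), the gene of the CD3 gamma chain, was present or nearly absent by library. It stood at 61.0 normalized counts in Het1, 0 in Het2 and 0 in Het3, with 1.03 in Ko1, 101.5 in Ko2 and 93.1 in Ko3. Het1, Ko2 and Ko3 held 65 to 109 reads, and the other 3 libraries held 0, 0 and 1; both kinds occurred in both groups. Where no read was found, 3 reads give an upper limit of 2.13 normalized counts in Het2 and 4.33 in Het3, for counting error only.

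Cd3e (ENSMUSG00000032093), for the CD3 epsilon chain, was high in part in other libraries than Cd3g. It stood at 0.559 in Het1, 15.6 in Het2 and 30.3 in Het3, with 1.03 in Ko1, 16.6 in Ko2 and 0 in Ko3, with 61 reads in all. Ko2 was the only library with more than 3 reads of all 3 CD3 genes. Cd3d made up 38.9% of CD3 reads in Het1 (95% Wilson interval 32.1% to 46.2%) and 96.9% in Ko1 (89.5% to 99.2%), so the 3 genes were not read in 1 ratio across these libraries, by intervals that cover counting error only. An antisense gene and a further gene on the same strand overlap Cd3e in the GENCODE M21 annotation. The authors' counting is not stated to use strand, so reads of these genes cannot be told apart from those of Cd3e.

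Lck (ENSMUSG00000000409), the kinase gene, had the most reads of the 10, 730 in all. Its normalized counts were 182.3 in Het1, 9.94 in Het2 and 290.02 in Het3, with 72.0 in Ko1, 31.1 in Ko2 and 127.5 in Ko3. Het2 was lowest and Het3 highest, 29.2-fold apart within 1 group, and all 3 Ko values lay between them. Per kilobase of merged exons, Lck and Cd3d had the highest mean levels of the 10, at 40.6 and 39.03 normalized counts per kilobase over the 6 libraries, and the ranges of these levels, 3.39 to 99.02 and 21.6 to 64.4, overlapped. The next was Cd3g at 13.1, whose range reached 31.1. On the same scale Trpm5 was at 2635, with a range of 1820 to 3123.

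Of the coreceptors, Cd4 (ENSMUSG00000023274) was read and Cd8a (ENSMUSG00000053977) was close to unread. Cd4 was at 74.4 normalized counts in Het1, 15.6 in Het2 and 1.44 in Het3, with 3.09 in Ko1, 62.2 in Ko2 and 35.8 in Ko3. Het1 and Ko2 were high, Het3 and Ko1 low, and the groups overlapped throughout. Cd8a had 4 reads in Het1, 0 in Het2 and 1 in Het3, with 5 in Ko1, 0 in Ko2 and 0 in Ko3. Cd8b1, which encodes the partner chain of CD8 alpha, had 12 reads in all 6 libraries. Thus Het1 held 133 reads of Cd4 beside 4 of Cd8a, and Ko2 held 60 beside 0.

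The 4 genes of receptor assembly and the pre-receptor were near the limit of 1 to a few reads, apart from Dntt in a few libraries. Rag1 (ENSMUSG00000061311) had 4 reads in Het1, 3 in Het2 and 2 in Het3, with 3 in Ko1, 1 in Ko2 and 4 in Ko3. Rag2 (ENSMUSG00000032864) had 2, 1 and 0 and then 1, 0 and 1 reads in the same library order. Ptcra (ENSMUSG00000036858) had 5, 0 and 1 reads in the Het libraries and 0, 0 and 2 in the Ko libraries. No library held more than 5 reads of any of these 3 genes, at depths of at least 12238428 reads. B230118H07Rik, a gene that overlaps both Rag genes in the GENCODE M21 annotation, averaged 736 normalized counts, so reads from it could be counted toward them and cannot be told apart. A non-coding RNA gene overlaps Ptcra on the other strand, so the few Ptcra reads have a like limit.

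Dntt (ENSMUSG00000025014) was at 10.1 normalized counts in Het1, 0.710 in Het2 and 0 in Het3, with 3.09 in Ko1, 0 in Ko2 and 57.3 in Ko3. Ko3 alone held 40 of its 62 reads. In that library Rag1 had 4 reads, Rag2 1, Ptcra 2 and Cd8a 0, so Dntt stood well above the genes it usually accompanies in immature thymocytes.

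**Figure D1:**
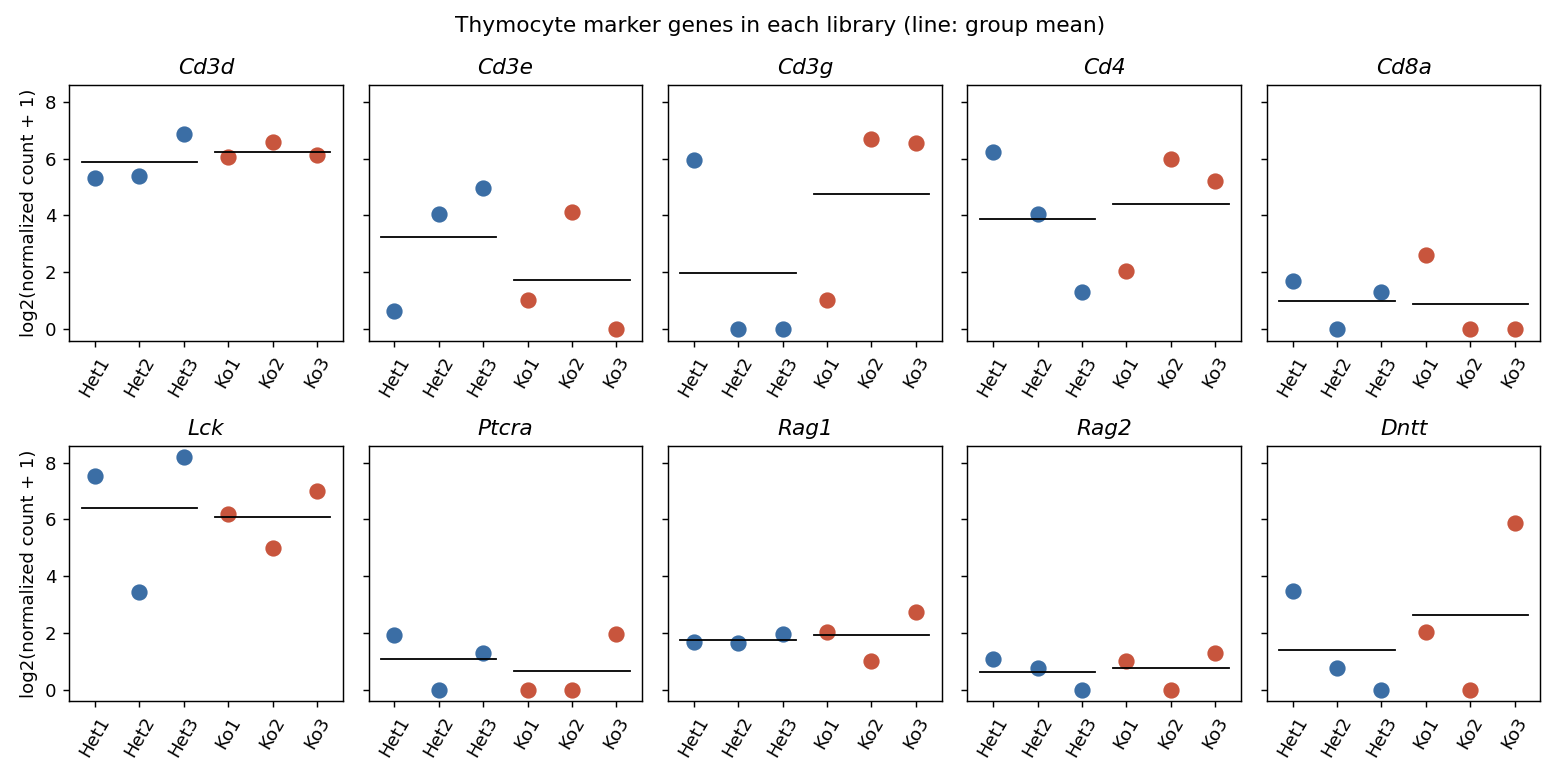
Normalized counts of the 10 genes on a log2(value + 1) axis, 1 point per library (blue Het, red Ko), with a line at the mean of the log values of each group. Cd3d is level across libraries, Cd3g, Cd3e, Cd4 and Dntt jump between high and near 0 within at least 1 group, and Cd8a, Ptcra, Rag1 and Rag2 stay at the bottom.

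The question of the comparison is whether thymocyte transcripts differed between the genotypes in the sorted cells. None of the 10 genes was called, and for each of them the values of the 2 groups overlapped. Of the 10, 6 passed the filter of a mean of at least 10 normalized counts, and 0 of these 6 had a limma adjusted p under 0.05, against 0.814% of 19416 genes tested. The counts were likewise 0 of 6 with edgeR (0.386% of all genes called) and DESeq2 (5.76%). Groups did not overlap for 18.4% of all genes tested and for 0 of the 6. At an unadjusted p under 0.05 the count was also 0 of 6 with limma and edgeR, and 0 with DESeq2, which gave no p for Cd3g. Of all 19416 genes, 13.6% were under 0.05 with limma, 2725 genes with edgeR and 3061 with DESeq2. DESeq2 left the adjusted p of 3 of the 6 blank. With no filter on low values, limma tested all 10 and called 0, with 0 at an unadjusted p under 0.05, against 0.359% called of 44239 genes. The authors' deposited table gives an adjusted p for 6 of the 10 genes, the smallest 0.658.

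The differences were estimated too loosely to say that the groups were alike. For Cd3d, the gene with the narrowest interval, the log2 difference of Ko minus Het was 0.38 ± 0.80 (SE; 95% interval -1.40 to 2.15; limma adjusted p = 0.887). For Cd3g it was 2.77 ± 2.13 (interval -1.98 to 7.51; adjusted p = 0.627). Cd3e lay in the other direction at -1.50 ± 1.80 (interval -5.51 to 2.50; adjusted p = 0.779). Dntt was at 1.22 ± 1.93 (-3.08 to 5.52; 0.840), Cd4 at 0.54 ± 1.63 (-3.08 to 4.17; 0.922) and Lck at -0.32 ± 1.22 (-3.03 to 2.39; 0.941). All are on the log2(value + 1) scale, where the added 1 draws low values together and a library near 0 weighs more than in a ratio of means. For Cd3g the log2 difference was smaller with edgeR (1.64) and DESeq2 (1.67), and those of Cd3d, Cd3e and Cd4 were also smaller in size. With the same tools the differences of Lck (-1.05 and -1.06) and Dntt (2.37 and 2.47) were larger in size. Signs of 3 genes rested on single libraries: Cd4 went to -0.74 without Het3 and -0.24 without Ko2, Lck to 0.25 without Het1, 0.58 without Het3 and 0.21 without Ko2, and Dntt to -0.40 without Ko3.

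**Figure D2:**
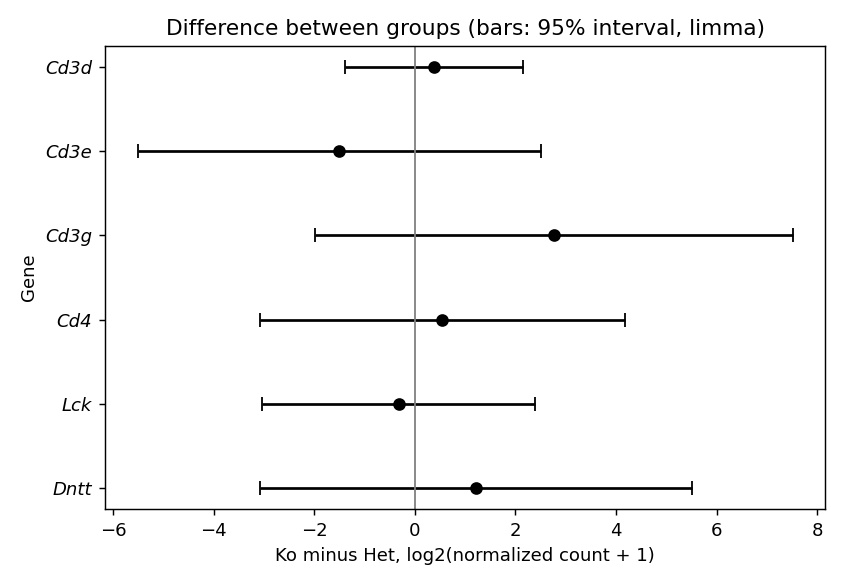
Difference between groups for the 6 genes that passed the filter, as Ko minus Het on the log2(normalized count + 1) scale, with bars for the 95% interval of limma. Every interval includes 0, and Cd3d has the narrowest, from -1.40 to 2.15.

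Summed over the 10 genes, thymocyte marker reads were a minute share of each library. The sum was 21.4 CPM (reads per 1000000 reads of the library) in Het1, 4.80 in Het2 and 24.8 in Het3, with 8.94 in Ko1, 17.3 in Ko2 and 22.4 in Ko3. The mean was 17.0 ± 10.7 over the Het and 16.2 ± 6.79 over the Ko libraries (SD, n = 3 each), so the groups differed by less than the spread within either of them. Without Lck the order of the means turned, with 7.95 ± 3.43 over the Het and 11.8 ± 6.09 over the Ko libraries, a difference larger than the SD of Het and smaller than that of Ko, and the values of the groups still overlapped. Het2 and Ko1 were the low libraries, with 95% Wilson intervals of 4.02 to 5.73 and 7.62 to 10.5 that lie below those of the other 4. For scale, the 30 tuft cell genes took 14824 to 24670 CPM. In bulk samples such as these, fewer cells of a type and less RNA per cell cannot be told apart.

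**Figure D3:**
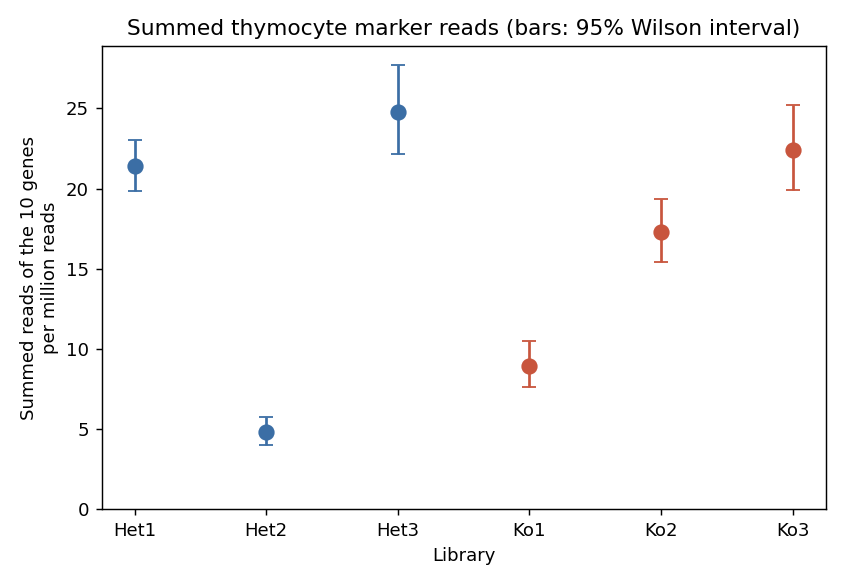
Summed reads of the 10 genes in CPM in each library (blue Het, red Ko), with 95% Wilson intervals that cover counting error only. Het2 and Ko1 are low, at 4.80 and 8.94, and both groups also hold libraries above 17.

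The make-up of that sum changed from library to library. Lck supplied 65.3% of the marker reads in Het3 (95% Wilson interval 59.8% to 70.4%) and 48.5% in Het1 (44.8% to 52.3%), but 11.6% in Het2 (7.02% to 18.5%) and 10.1% in Ko2 (7.19% to 14.1%). Cd3g supplied 33.1% in Ko2 (28.0% to 38.7%), 23.7% in Ko3 and 16.2% in Het1, and under 1% in the other 3 libraries. Cd3d led in Het2 with 47.9% (39.2% to 56.8%) and made up 10.4% in Het1 (8.33% to 13.0%). By reads, the leading gene was Lck in Het1, Het3, Ko1 and Ko3, Cd3d in Het2 and Cd3g in Ko2. Per kilobase of merged exons, Cd3d led in Het2, Ko1 and Ko2, at 22.7, 35.7 and 51.9 normalized counts per kilobase, and Lck in the other 3. The Wilson intervals cover counting error alone, not the spread between libraries of 1 group.

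Large jumps between replicates were common among genes read this rarely. The SD of log2(value + 1) within groups was 0.65 for Cd3d, lower than in all but 12.3% of the 9931 genes with a mean of 10 to 200 normalized counts, whose median was 1.66. It was 1.95 for Lck, 2.22 for Cd3e, 2.29 for Cd4, 2.47 for Dntt and 3.34 for Cd3g, and 97.9% of those genes had a smaller SD than Cd3g. Within at least 1 group, Cd3e, Cd3g, Cd4 and Dntt each had a library with 20 or more reads and another with at most 1, which held for 34.3% of the 9931 genes. The pattern of the 6 tested genes combined, as the mean of their standardised log2 values, was lowest in Het2 and Ko1. Among 12294 other genes with a mean of at least 50, those near to it in Pearson's r over the 6 libraries included Tmem250-ps (0.982), Ctif (0.981), Dcaf11 (0.980) and Cab39 (0.979). With 6 points, 79 genes had an r above 0.9.

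Other genes of the T cell receptor complex and its signalling gave a mixed picture. Of 30 such genes, 23 passed the filter and 0 were called by limma in either direction, against 0.814% of all genes. An unadjusted p under 0.05 was found for 7, a share to be read against 13.6% of all genes. The groups did not overlap for 5 of the 23 (Themis, Cd247, Lcp2, Sh2d1a and the kinase gene Prkcq), against 18.4% of all genes. Their median log2 difference was -0.88 (6 positive, 17 negative), against -0.05 over all genes tested. Themis, a regulator of signalling in thymocytes during selection, was at 8.39 normalized counts in Het1, 58.9 in Het2 and 79.4 in Het3, with 434.2 in Ko1, 379.2 in Ko2 and 908.1 in Ko3. All 3 Ko values lay above all Het values, a log2 difference of 3.90 ± 0.84 (SE) that did not pass limma (adjusted p = 0.0735) or edgeR (0.133) and passed DESeq2 (4.33e-05).

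Cd247, the gene of the CD3 zeta chain, went the other way. It was at 105.1 normalized counts in Het1, 274.1 in Het2 and 76.5 in Het3, with 3.09 in Ko1, 26.9 in Ko2 and 2.86 in Ko3 (limma adjusted p = 0.153, DESeq2 adjusted p = 0.0169). Lcp2, for the adaptor SLP-76, averaged 104.3 ± 107.01 across Het and 3.63 ± 1.89 across Ko libraries (limma adjusted p = 0.205, DESeq2 0.00503; SD, n = 3 each), and Sh2d1a, for the adaptor SAP, averaged 39.1 ± 38.1 and 0.345 ± 0.598 (limma 0.214, DESeq2 0.0494). None of these 3 genes passed limma or edgeR, and for each of them every Ko value lay below every Het value. They were named for their small p, and groups did not overlap for 18.4% of all genes tested. Of 5 further lists of blood cell genes, 3 were lower by read share in all libraries labelled Ko. The pan-haematopoietic list among them is not particular to other blood cells than thymocytes, and its gene Vav1 is also in the tuft cell list. The 20 pan-haematopoietic genes took 1709 to 1774 CPM in Het and 1247 to 1347 in Ko libraries, the 20 dendritic cell and macrophage genes 326 to 3114 and 88.2 to 214, and the 15 NK and innate lymphoid genes 88.1 to 172 and 39.6 to 66.2. The 20 B cell genes took 326 to 461 and 457 to 496 CPM, and the erythroid genes 2.74 to 554 and 0.933 to 6.38, so these lists overlapped. The B cell share sums genes that went opposite ways and is not a level of B cells. Cd79b averaged 2463 normalized counts across Het and 5279 across Ko libraries, and Vpreb3 averaged 1198 and 32.5. A mean under 10 normalized counts was found for 2 of the pan-haematopoietic, 6 of the dendritic cell and macrophage and 10 of the NK and innate lymphoid genes. Areg and Rora gave most of the NK and innate lymphoid reads in every library, with 850 and 1882 reads in Het1 and 218 and 416 in Ko1. The lysozyme gene Lyz2 gave most of the dendritic cell and macrophage reads in each Het library (95307 in Het1). The shares of the NK and innate lymphoid list and of the dendritic cell and macrophage list thus rest on few genes there. The dendritic cell gene Cd209a had 0 reads and the NK receptor gene Ncr1 had 1 read over the 6 libraries, while Itgam, an integrin gene of myeloid cells, was at 139 to 310 normalized counts in Het and 0 to 60.1 in Ko libraries. The part of other blood cells in the values of Cd247, Lcp2 and Sh2d1a was not tested. Among receptor chain genes, Trbc2 was read in every library, at 159.96 ± 58.3 and 109.6 ± 18.0, and Trac was at 37.2 ± 27.1 and 36.1 ± 38.5. Trbc1 was at 33.0 in Het1, 124.96 in Het2 and 362.2 in Het3, with 7.20 in Ko1, 3.11 in Ko2 and 37.2 in Ko3; the groups overlapped, and it did not pass limma (adjusted p = 0.270) or edgeR (0.303) and passed DESeq2 (0.0401).

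**Figure D4:**
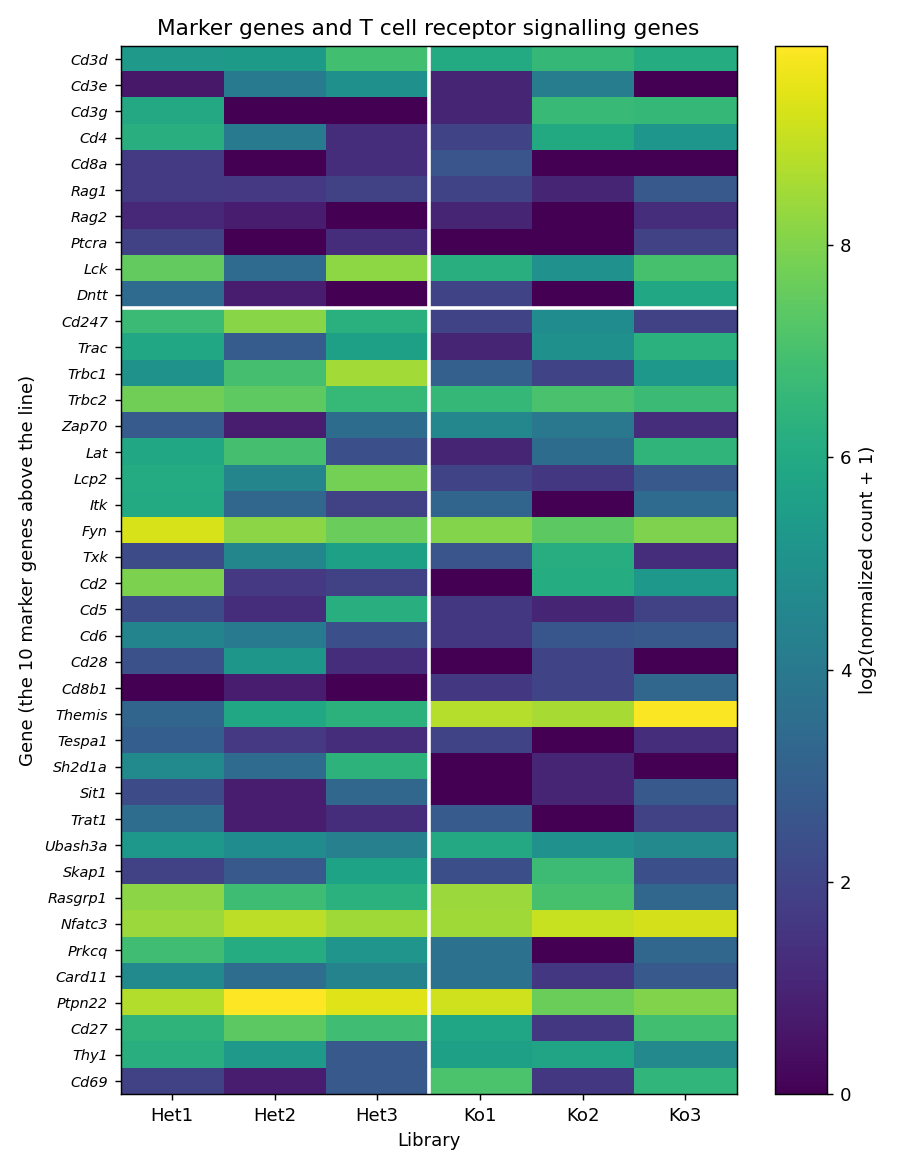
Log2(normalized count + 1) of the 10 marker genes (above the white line) and of 30 genes of T cell receptor signalling, by library. Themis is brighter in all 3 Ko libraries and Cd247, Lcp2 and Sh2d1a are darker there, while most marker genes show no column pattern by group.

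Lists of thymocyte stages were read the same way. Over all genes tested, limma called 0.814% and the median log2 difference was -0.05, so 0 calls in lists this short do not set them apart. Of 16 genes of early T lineage factors, 15 passed the filter with a median log2 difference of -0.48 and 0 called. Among them Kit, a receptor tyrosine kinase gene, averaged 3108 ± 160 across Het and 2219 ± 507 across Ko libraries (limma adjusted p = 0.327; SD, n = 3 each), far above every marker gene. Of 21 genes linked to the stage with both coreceptors, 15 passed with a median of 0.22 and 0 called by limma. Of these 15, 6 had an unadjusted limma p under 0.05, against 13.6% of all genes. The groups did not overlap for 4 of the 15, against 18.4% of all genes. By read share this list was higher in all libraries labelled Ko, at 2107 to 3161 CPM in Het and 3547 to 3962 in Ko libraries. The shares of the early T lineage list and of the mature list below overlapped between groups. Nrgn, which encodes a calmodulin-binding protein, was at 12524 ± 5982 and 24917 ± 3296, also far above every marker gene. Its groups did not overlap, and it passed DESeq2 (adjusted p = 0.00568) but not limma (0.105) or edgeR (0.231). DESeq2 called 5.76% of all genes, and Nrgn was named for its small p. The share of its list includes Nrgn itself, with 5799 reads in Het3 and 20050 in Ko3. Mns1 of the same list also did not overlap but was lower in Ko libraries, at 229 ± 66.7 and 48.3 ± 36.4. Of 22 genes of mature thymocytes, 16 passed with a median of -0.32 and 0 called. Il7r, the interleukin-7 receptor gene of T cell precursors and mature T cells, was at 1.68 in Het1, 89.5 in Het2 and 92.3 in Het3, with 1.03 in Ko1, 2.07 in Ko2 and 0 in Ko3 (limma adjusted p = 0.357, DESeq2 0.0332).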

How the data were processed

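Tuft cells of the thymus, sorted as L1CAM+, were lysed for SMART-seq and their RNA was sequenced, per the labels' protocols. STAR 2.7.9a, DESeq2 and the build GRCm39 are named for the authors' work, per the submitters' processing notes. For read counter, annotation and strand, settings were not given in the sources used here. Each deposited value is a signal: the count of a gene over the size factor of its library. In the authors' deposited table of the comparison are a mean signal, a log2 fold change, a Wald score and p-values per gene, per the file headers.

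Values above 0 were whole multiples of 1 step per column (100% within 0.01 reads), which gave back the reads. Symbols were found for 55144 of 55471 genes. Genes with a mean of at least 10 were tested by limma 3.58.1 (R 4.3.3) after a log2(value + 1) transform (eBayes with trend, two-sided, genotype as the only term, Benjamini-Hochberg over 19416 genes at 0.05), since an exact test of 3 against 3 cannot go below 0.10. Differences are Ko minus Het. Shares have 95% Wilson intervals; these and the floor of 3 reads cover counting error only. On simulated data of 19416 genes, limma found 39% of 4-fold and 73% of 16-fold changes and called 13 of 19216 unchanged genes, against 112 with DESeq2. The changed genes had means of at least 50, so these rates do not cover Cd3e, Cd3g, Cd4 and Dntt, whose means were lower. Alternatives were other pseudocounts, filters and scalings, robust eBayes, edgeR 4.0.16, DESeq2 1.42.0, a block by column number and leaving out each library. Merged exon lengths came from GENCODE M21 (build GRCm38). The members and gene lists were chosen with earlier results of these data known. Named were the 10 genes, up to 4 genes a list by smallest p, some of the 5 genes with the most similar pattern (not all are reported here), Ikzf1 and L1cam; other genes, and the range of means set beside the spread, were chosen after their values were seen.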

Additional observations from a re-analysis of the deposited data

How the results depend on the processing

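The count of thymocyte marker genes called stayed at 0 under all 16 alternatives. The count of all genes called, 158, went to 239 with robust eBayes, 75 with edgeR, 1118 with DESeq2 and 87 with the replicate block. It ran from 0 to 81 when 1 library was left out: it was 0 without Het2 or Het3 (limma; 2127 and 2085 genes at an unadjusted p under 0.05), 81 without Het1, 74 without Ko1, 54 without Ko2 and 15 without Ko3. Of the genes in the other lists 4 were called, against 8 with robust eBayes, 1 with edgeR and 25 with DESeq2, and 0 to 6 when 1 library was left out. The log2 difference ran from -0.74 to 1.73 for Cd4, from -1.79 to 0.58 for Lck and from -0.40 to 2.53 for Dntt when 1 library was left out, and kept its sign under the alternatives run with all libraries. The signs of Cd3d, Cd3e and Cd3g held under every alternative in which they were tested, although leaving out 1 library moved them by over 1.5 times (0.11 to 0.88, -2.79 to -0.63 and 1.78 to 4.75), with adjusted p-values from 0.335 to 0.977. Column numbers were not taken as pairs, since deviations of same-numbered columns correlated at 0.025, 0.021 and -0.015 across genes. Depth limits the 4 genes that did not pass the filter, where 1 to 5 reads decide a value. The summed share moved by less than 1 SD when mitochondrial and ribosomal protein genes or a single library were left out; without Lck it went from 17.0 to 7.95 CPM in Het and from 16.2 to 11.8 in Ko libraries, which turns the order of the groups.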

Other observations

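Among 20 B cell markers, 17 passed the filter on low values and 1 was called (0.814% of all genes tested were called). Cd79b, which encodes a chain of the B cell receptor complex, rose from 2463 ± 581 to 5279 ± 538 normalized counts in the libraries labelled Ko (SD, n = 3 each; limma adjusted p = 0.0433, edgeR 0.0826). The B cell surface gene Ms4a1 had only 11 reads over the 6 libraries. Vpreb3, a gene of early B cells, was at 18.5 in Het1, 1845 in Het2 and 1730 in Het3, with 2.06 in Ko1, 95.3 in Ko2 and 0 in Ko3 (limma adjusted p = 0.239).

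The haemoglobin gene Hbb-bs was at 6292 normalized counts in Het3, 293 in Het1 and under 10 in the other 4 libraries. Lyz2, the lysozyme gene of macrophages, was at 53300 in Het1, 3666 in Het2 and 8729 in Het3, with 497 in Ko1, 2900 in Ko2 and 1130 in Ko3 (limma adjusted p = 0.122, DESeq2 0.0349). Het2, the library lowest in thymocyte marker reads at 4.80 CPM, was at 326 CPM for the macrophage list, against 3114 in Het1 and 557 in Het3. Most reads of that list were of Lyz2 in each Het library.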
